A study of Saccharomyces cerevisiae with 6 samples.

Results

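SUC2, ADH2, ICL1 and MLS1 are 4 budding yeast genes that glucose keeps silent and that cells use when they must live on other carbon sources. They were chosen as named genes, by their approximate positions on the sacCer1 build, with 1 kb on each side. SUC2 (YIL162W) was placed at chromosome 9, 37385 to 38983, ADH2 (YMR303C) at chromosome 13, 873291 to 874337, ICL1 (YER065C) at chromosome 5, 285241 to 286914, and MLS1 (YNL117W) at chromosome 14, 406359 to 408023. Together the 4 loci cover 13985 bp and hold 65 of the 54902 nucleosomes that were called on the pool of all libraries. Positions below are distances in bp from the start of the open reading frame (ORF) in the direction of the gene, negative upstream. The positions of the ORFs are approximate, and so are these distances. By gene order in RefSeq (R64), the upstream neighbours are YIL163C, UBP15, SUP19 and DCP2 for SUC2, ADH2, ICL1 and MLS1 in that order, and the downstream neighbours are SMU2, YME2, VHR2 and DMA2.

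In the presence of glucose the repressor Mig1 acts at the promoters of many such genes. When glucose runs out, the kinase Snf1 relieves this repression and the activators Adr1 and Cat8 take over at many of them. SUC2 encodes invertase, which splits sucrose outside the cell, and its promoter is a classic case of chromatin repressed by Tup1 and opened by the SWI/SNF remodeler. ADH2 encodes the alcohol dehydrogenase that oxidizes ethanol to acetaldehyde, and is known for a promoter with nucleosomes that are remodeled when glucose is gone. ICL1 and MLS1 encode isocitrate lyase and malate synthase, the enzymes particular to the glyoxylate cycle, which lets cells build sugars from acetate. Transcripts were not measured in the libraries used here, so whether any of these genes was on or off was not checked.

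The assay was single-end MNase-seq of formaldehyde-fixed cells: micrococcal nuclease cuts between nucleosomes, and the centre of each sequenced fragment marks the middle of a nucleosome, the dyad. The H3 shutoff strain (DCB200.1) lacks HHT1 and carries HHT2, its only histone H3 gene, behind the GAL1 promoter, so that H3 is made in galactose and not in dextrose. H3 shutoff cells were collected 3 h (n = 2 libraries) and 0 h (n = 2) after a move from galactose medium to dextrose medium, and wildtype cells (YEF473A) at 3 h (n = 1) and at 0 h (n = 1) after the same move. A replicate stands for 1 culture, from which both times were drawn, and all 6 libraries come from dextrose medium, at 0 h directly after the wash. In wildtype the 3 h samples differ from the 0 h samples by the time in dextrose, while in H3 shutoff the time in dextrose and the loss of H3 synthesis go together. Only the wildtype pair, with no replicate, bears on telling these apart, and the cell cycle arrest of the depleted strain goes with the loss of H3 and cannot be told apart from it. Neither the deletion of HHT1 nor the promoter of HHT2 was checked here.

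Every library holds 5000001 reads, so a value at a locus is an occupancy relative to the rest of the same library. An even loss of nucleosomes along all chromosomes would not show. Over the genome, reads of the H3 shutoff libraries at 3 h lay less often at the nucleosome centres called on the pool. Of these reads, 57.2% and 58.0% fell within 50 bp of a tested nucleosome, against 67.6% and 68.8% at 0 h. In wildtype the shares were 73.2% at 3 h and 72.3% at 0 h. The median over all nucleosomes is therefore used as the point of comparison for each change in the fit across nucleosomes.

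One library stood apart from its group. Over the 53684 tested nucleosomes of the genome, log2 counts of H3 shutoff at 0 h, replicate 1, correlated at r = 0.767 with replicate 2 of the same group and at r = 0.809 with wildtype at 3 h. Replicate 2 correlated at r = 0.915 with wildtype at 0 h and at r = 0.832 with wildtype at 3 h. Likeness to wildtype at 3 h was thus not particular to replicate 1, which had r = 0.758 with wildtype at 0 h. Nucleosomes share libraries and depth, so these r values describe the libraries and carry no p. The same held over the 65 nucleosomes of the 4 loci. There, replicate 1 at 0 h had r = 0.634 with replicate 2, 0.789 with wildtype at 3 h and 0.557 with wildtype at 0 h. Replicate 2 had r = 0.937 with wildtype at 0 h and 0.859 with wildtype at 3 h. The label and the time of sampling of this library could not be checked here, and every value of replicate 1 at 0 h carries that doubt. Values without it are given for several of the results below.

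**Figure D1:**
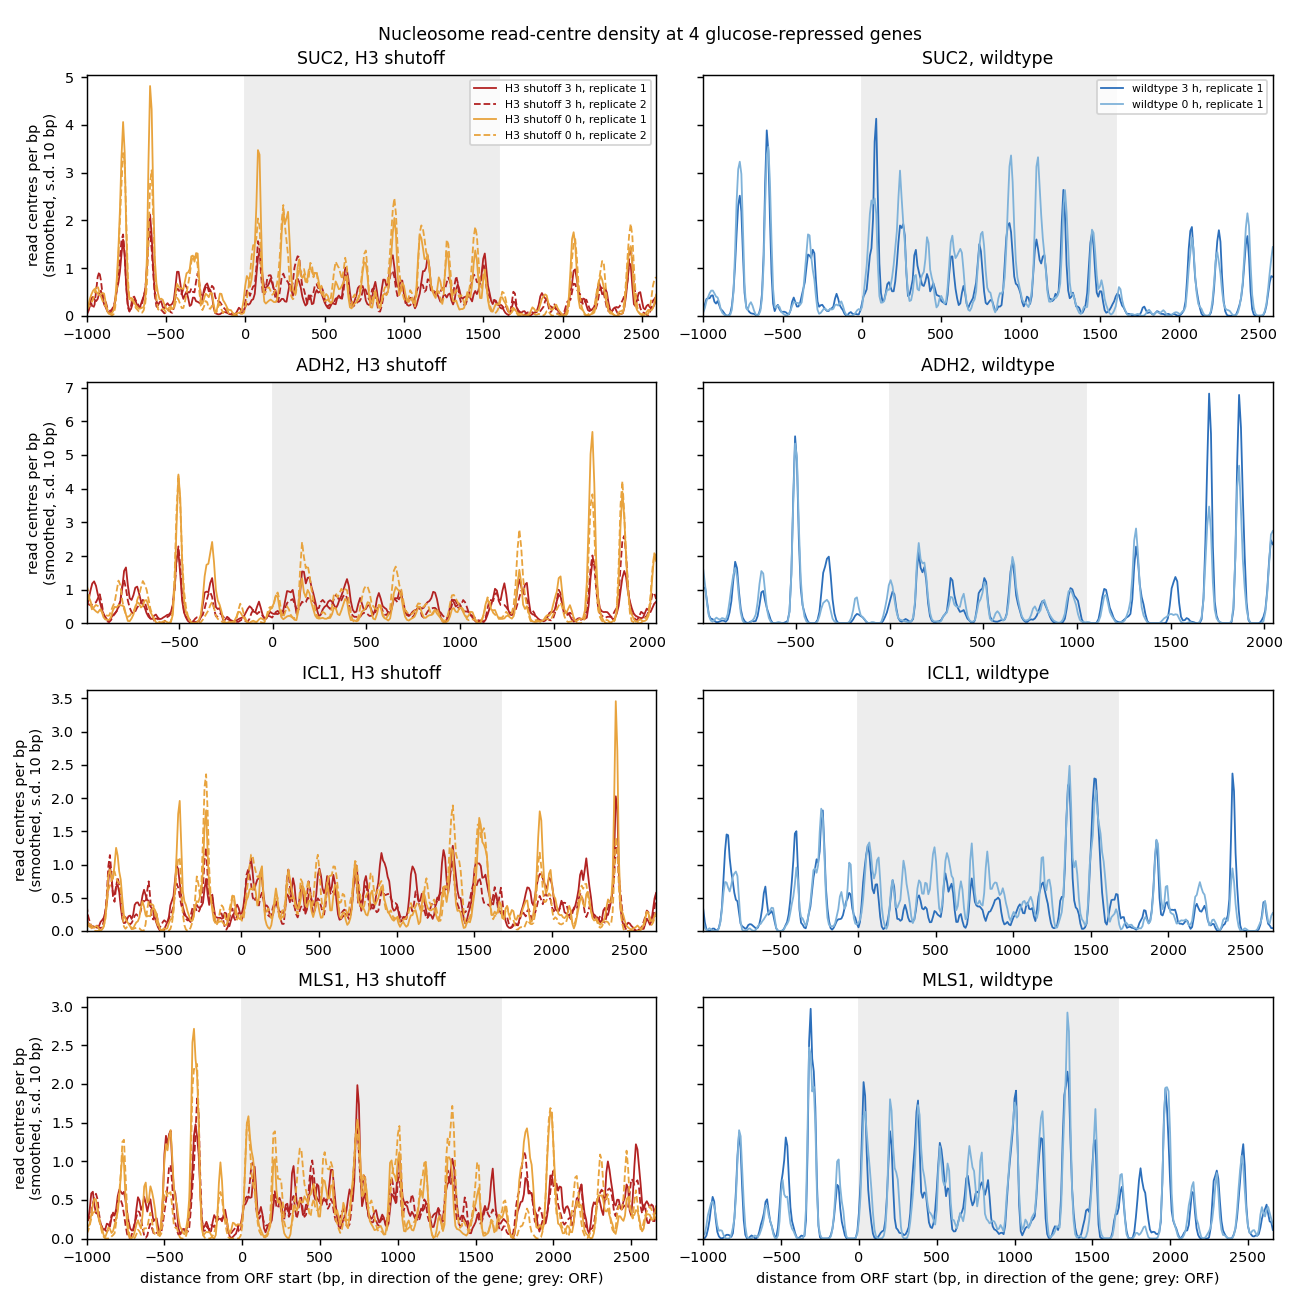
Smoothed density of read centres (read centres per bp, y axis) against distance from the ORF start in bp (x axis) at the 4 genes, with H3 shutoff on the left and wildtype on the right and the ORF in grey. Each line is 1 library. At SUC2, both H3 shutoff libraries at 3 h (red) lie below both at 0 h (orange) at the peaks near -769 and 85 bp. At ADH2, the peak near -327 bp is tall in wildtype at 3 h and in H3 shutoff replicate 1 at 0 h.

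The first question was which nucleosomes of these genes gained or lost relative occupancy as H3 was depleted. SUC2 gave the most lower counts of the 4 genes, and 2 of its nucleosomes fell at 3 h in H3 shutoff. Of the 65 nucleosomes, all of which passed the minimum of 10 read centres on average over the 6 libraries, 2 were called, both lower at 3 h and both of SUC2, by edgeR's quasi-likelihood test with the culture as a block and Benjamini-Hochberg adjustment over 53684 nucleosomes (adjusted p under 0.05). In the genome, 5.68% of nucleosomes were called, 2.96% lower and 2.73% higher, so that 2 of 65 is not above the background. SUC2 had 2 of 18 called, and ADH2, ICL1 and MLS1 had 0 of 14, 0 of 16 and 0 of 17. At an unadjusted p under 0.05, 9 of the 65 nucleosomes were lower and 1 was higher, beside 11.2% and 10.8% in the genome. Both calls were lost without the block, where 0 nucleosomes of the genome were called. They were also lost when either 3 h library of H3 shutoff was left out, as was every other call in the genome. Such a fit leaves 1 library in that group. DESeq2 called 0 of the 65, with 3 at an unadjusted p under 0.05, but after its filter on low counts it gave an adjusted p for only 6 of them.

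The called nucleosome at -769 bp lies far upstream in the region before SUC2. It had 76 and 82 read centres in H3 shutoff at 3 h, against 183 and 166 at 0 h, while wildtype had 127 at 3 h and 163 at 0 h. Both 3 h libraries of H3 shutoff were thus below both 0 h libraries, and below wildtype at both times. The log2 change in the fit was -0.96 ± 0.29 (SE), with an adjusted p of 0.0303 (edgeR). The adjusted p was 0.0554 without the block and 0.141 by DESeq2.

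The nucleosome at 255 bp, in the SUC2 ORF, had the lowest mean log2 ratio among the SUC2 nucleosomes, counted in a fixed window. The authors' nearest calls lay at 327 and 336 bp in H3 shutoff at 3 h, with 61 and 84 read centres. At 0 h they lay at 268 and 240 bp, with 146 and 135. In replicate 1 the matching of calls described below paired 327 bp with 268 bp. In replicate 2 it paired 336 bp with a call at 415 bp, with 84 read centres at 3 h against 90 at 0 h. The 0 h call at 240 bp had no match there. How much of the lower count was a move of reads out of the window was not tested. The counts in the window at 255 bp were 40 and 66 in H3 shutoff at 3 h, against 149 and 128 at 0 h. Wildtype had 122 at 3 h and 165 at 0 h. The H3 shutoff groups did not overlap, and the wildtype pair moved in the same direction by less. The log2 change was -1.22 ± 0.30 (SE), with an adjusted p of 0.00589 (edgeR), and the adjusted p was 0.0525 without the block. DESeq2 gave this nucleosome no adjusted p. In wildtype the log2 ratio per library pair, with 1 read added to each count, was -0.43.

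The first nucleosome of the SUC2 ORF, at 85 bp, had 77 and 83 read centres in H3 shutoff at 3 h, against 158 and 126 at 0 h, and it had 180 at 3 h and 154 at 0 h in wildtype. It did not pass the threshold (log2 change -0.64, edgeR adjusted p = 0.174). The nucleosome next upstream of the ORF, at -160 bp, was shallow and uneven between replicates. It held 4 and 31 read centres in H3 shutoff at 3 h, against 28 and 16 at 0 h, and 23 at 3 h and 21 at 0 h in wildtype. Replicate 1 was lower at 3 h and replicate 2 higher, so the direction depended on the replicate, and it turned round when either library of replicate 1 was left out. The highest mean log2 ratio was at 1897 bp, beyond the end of the gene. There, 31 and 19 read centres at 3 h stood against 26 and 4 at 0 h in H3 shutoff, and wildtype had 5 at 3 h and 6 at 0 h. This count rested on replicate 2, whose 0 h library held 4 read centres, and the adjusted p was 0.322 (edgeR, log2 change 1.17). Without replicate 1 at 0 h the log2 change was 2.81 with an adjusted p of 0.00389 (edgeR).

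**Figure D2:**
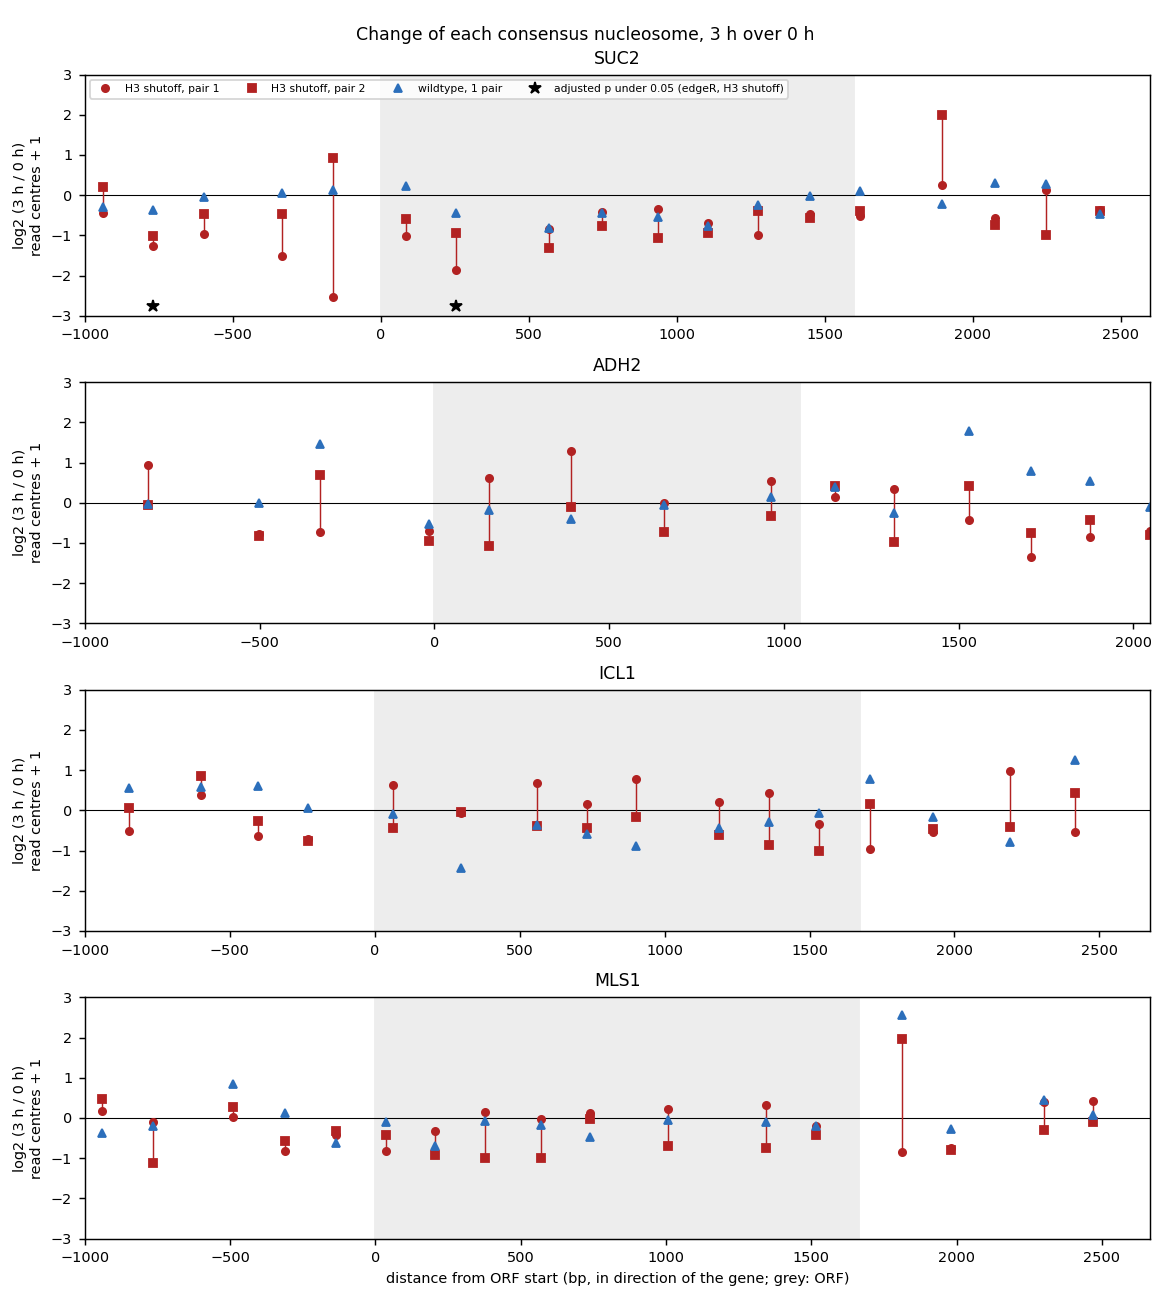
Log2 ratio of read centres at 3 h over 0 h (y axis, 1 read added to each count) for each of the 65 consensus nucleosomes against its distance from the ORF start in bp (x axis, ORF in grey). Red points are the H3 shutoff pairs 1 (circle) and 2 (square), joined by a line, and blue triangles are the wildtype pair. Stars mark the 2 nucleosomes called by edgeR, at -769 and 255 bp of SUC2. In the SUC2 ORF both red points lie below 0 at every nucleosome.

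Over the whole locus, SUC2 had lower values in H3 shutoff at 3 h at 16 of its 18 nucleosomes in the fit, with a median log2 change of -0.49. The same median was -0.09 at ADH2, -0.0025 at ICL1, -0.14 at MLS1, -0.21 over all 65 and 0.02 over the 53684 nucleosomes of the genome. The direction of SUC2 was the same in both cultures at 14 nucleosomes lower in both pairs and 1 higher in both. In raw counts, both 3 h libraries lay below both 0 h libraries at 12 of 18 SUC2 nucleosomes, at 7 of 17 of MLS1, at 5 of 14 of ADH2 and at 2 of 16 of ICL1. That makes 26 of 65, where 36.6% of all nucleosomes did so. Both 3 h libraries lay above both 0 h libraries at 3 of 65, where the share in the genome was 18%. Neighbouring nucleosomes of 1 gene share libraries and sequence and are not replicates. In wildtype, 6 of the 18 SUC2 nucleosomes were higher at 3 h, and the median log2 change in the fit was -0.21.

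Read centres were also summed over each ORF and over the 500 bp upstream of it. The ORF of SUC2 was the most densely covered of the 4 at 0 h. It held 827 and 872 read centres in H3 shutoff at 3 h, against 1166 and 1270 at 0 h, and 1212 at 3 h and 1488 at 0 h in wildtype. Per length this is 51.7 and 54.5 read centres per 100 bp at 3 h, against 72.9 and 79.4 at 0 h, in H3 shutoff, and 75.8 at 3 h and 93.1 at 0 h in wildtype. Set against the median tile of the same length in each library, the SUC2 ORF stood at 1.26 and 1.33 times that median in H3 shutoff at 3 h, against 1.81 and 1.96 times at 0 h, and at 1.91 times at 3 h and 2.31 times at 0 h in wildtype. The log2 change of 3 h over 0 h was -0.52 ± 0.03 (SD, n = 2 pairs) in H3 shutoff and -0.30 in the single wildtype pair. With TMM scaling the H3 shutoff value was -0.33, and with each distinct interval counted once it was -0.093 ± 0.088 (SD, n = 2 pairs), which is -0.34 relative to tiles of the same length. Of 7534 tiles of the same length, 0.903% had a lower mean change in H3 shutoff, and 12.0% had a lower change in wildtype. The direction of SUC2 was thus shared by both strains, with a larger size in H3 shutoff, and the difference in size was not tested. An exact two-sided permutation of 2 and 2 libraries reaches at best a p of 1 in 3, so none is given for sums over a region.

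The 500 bp upstream of SUC2 gave no such picture. They held 142 and 173 read centres in H3 shutoff at 3 h, against 215 and 140 at 0 h, and 161 at 3 h and 149 at 0 h in wildtype. The groups overlapped, since replicate 1 was lower at 3 h and replicate 2 higher. The mean log2 change was -0.15 ± 0.64 (SD, n = 2 pairs), a change smaller than the spread between cultures. The region holds the SUC2 promoter and lay below the median 500 bp tile in every library but H3 shutoff replicate 1 at 0 h. It stood at 0.689 and 0.844 of that median in H3 shutoff at 3 h, against 1.12 and 0.711 at 0 h, and at 0.856 at 3 h and 0.768 at 0 h in wildtype.

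**Figure D3:**
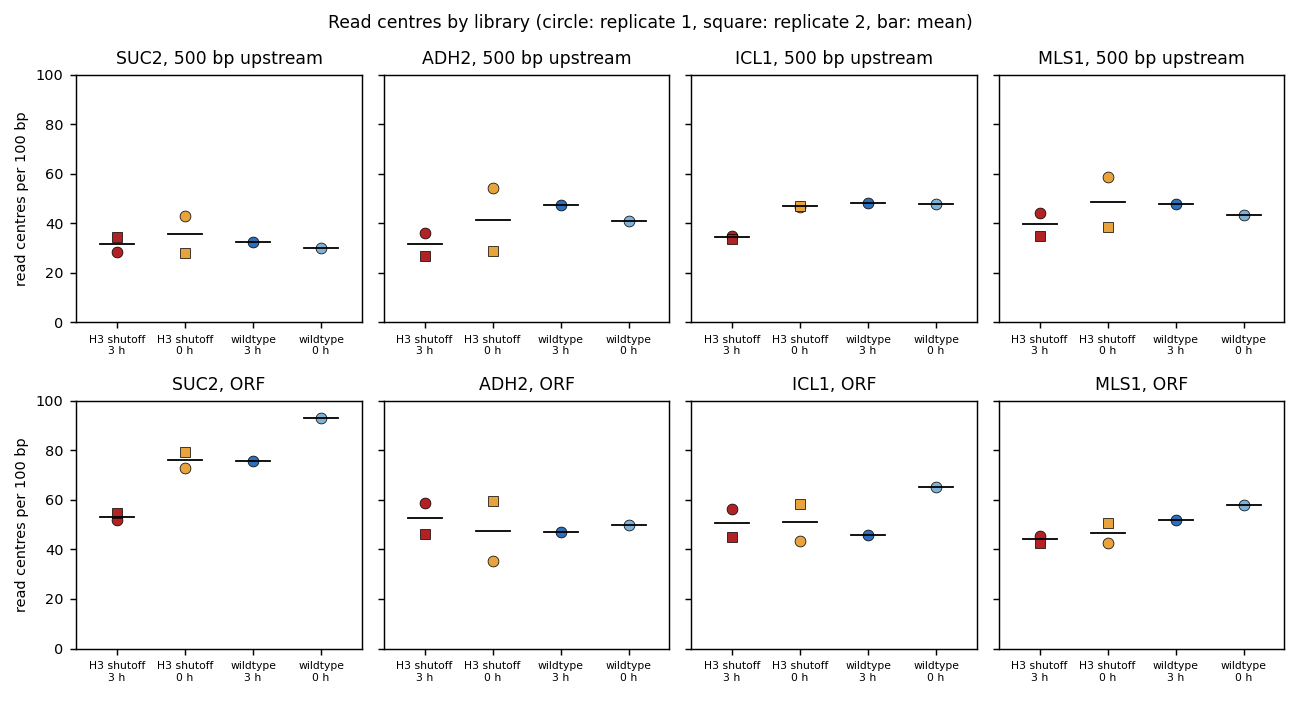
Read centres per 100 bp (y axis) in the 500 bp upstream of each gene (top) and in its ORF (bottom) for H3 shutoff at 3 h and 0 h and wildtype at 3 h and 0 h. Circles are replicate 1, squares replicate 2 and bars the group mean. In the SUC2 ORF the H3 shutoff values at 3 h, 51.7 and 54.5, lie below those of all other libraries.

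At ADH2, no nucleosome was called, and the 2 replicates disagreed in the ORF. The ORF held 617 and 484 read centres in H3 shutoff at 3 h, against 369 and 624 at 0 h, and 494 at 3 h and 523 at 0 h in wildtype. The value at 3 h was higher than that at 0 h in culture 1 and lower in culture 2. The mean log2 change was 0.19 ± 0.78 (SD, n = 2 pairs), and the low value was that of replicate 1 at 0 h, the library that stood apart. Without culture 1 the log2 change was -0.37, beside -0.08 in wildtype. ADH2 and the constitutive ADH1 have similar coding sequences, and the part of reads shared between them was not tested.

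Upstream of ADH2, the nucleosome at -503 bp was among the deepest of the 4 loci. At -503 bp there were 89 and 94 read centres in H3 shutoff at 3 h, against 154 and 167 at 0 h, and 204 at 3 h and 206 at 0 h in wildtype. The H3 shutoff groups did not overlap, and both wildtype libraries were higher than all 4 of them. The log2 change in the fit was -0.63 ± 0.30 (SE) with an adjusted p of 0.194 (edgeR). The nucleosome just upstream of the ORF, at -14 bp, had 26 and 24 read centres in H3 shutoff at 3 h, against 43 and 47 at 0 h, and 42 at 3 h and 61 at 0 h in wildtype. The first one in the ORF, at 156 bp, had 108 and 58 read centres at 3 h, against 70 and 124 at 0 h, and 111 at 3 h and 127 at 0 h in wildtype. Its adjusted p was 0.951 (edgeR), and its direction turned round when a library of replicate 2 was left out.

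The nucleosome at -327 bp, in the ADH2 promoter region, did not follow time alone. It had 86 and 51 read centres in H3 shutoff at 3 h, against 144 and 31 at 0 h, and 109 at 3 h and 39 at 0 h in wildtype. High counts were therefore found in wildtype at 3 h and in H3 shutoff replicate 1 at 0 h, and low counts in wildtype at 0 h and in H3 shutoff replicate 2 at 0 h. The log2 change in H3 shutoff was 0.05 ± 0.30 (SE) with an adjusted p of 0.952 (edgeR). Without replicate 1 at 0 h the same nucleosome was called higher at 3 h, and without replicate 2 at 0 h it was called lower.

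Beyond the 3′ end of ADH2 lay the deepest nucleosomes of the 4 loci. The one at 1706 bp had 89 and 89 read centres in H3 shutoff at 3 h, against 228 and 151 at 0 h, and 237 at 3 h and 136 at 0 h in wildtype. This was the lowest mean log2 ratio of the locus, with both 3 h libraries below both 0 h libraries, although it did not pass the threshold (log2 change -0.88 ± 0.30 SE, edgeR adjusted p = 0.0559). The log2 change was -0.56 without replicate 1 at 0 h. The wildtype pair moved the other way, and the difference of the log2 change between the strains was -1.72 with an adjusted p of 0.110 (edgeR). The highest mean log2 ratio of the locus was in the ORF at 392 bp, with 82 and 58 read centres at 3 h, against 33 and 63 at 0 h, in H3 shutoff, and 33 at 3 h and 44 at 0 h in wildtype (log2 change 0.76, edgeR adjusted p = 0.152). Only the library of replicate 1 at 0 h was low there among the H3 shutoff libraries, and without it the log2 change was 0.35.

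At ICL1, too, no nucleosome was called, and the cultures disagreed in the ORF. It held 940 and 755 read centres in H3 shutoff at 3 h, against 729 and 976 at 0 h, and 769 at 3 h and 1093 at 0 h in wildtype. The 2 cultures moved in opposite directions, and the mean log2 change was -0.0018 ± 0.52 (SD, n = 2 pairs). In the wildtype pair the log2 change was -0.51, and 2.81% of tiles of that length were lower. Without culture 1, whose 0 h library stood apart, the H3 shutoff value was -0.37, in the direction of wildtype.

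The 500 bp upstream of ICL1 were the upstream region with the smallest spread between the 2 cultures. They held 175 and 169 read centres in H3 shutoff at 3 h, against 233 and 235 at 0 h, and 240 at 3 h and 239 at 0 h in wildtype. Both 3 h libraries of H3 shutoff lay below the other 4 libraries, which differed little among themselves. The log2 change was -0.44 ± 0.04 (SD, n = 2 pairs) in H3 shutoff and 0.0060 in wildtype. With each distinct interval counted once, the H3 shutoff value was 0.097, which is -0.15 relative to tiles of 500 bp, and with a window of 1000 bp it was -0.16. In the genome, 7.32% of 24056 tiles of 500 bp had a lower mean change in H3 shutoff.

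The first nucleosome upstream of ICL1, at -230 bp, lay in this region and had the lowest mean log2 ratio of the locus. Its counts were 51 and 66 in H3 shutoff at 3 h, against 84 and 113 at 0 h, and 98 at 3 h and 94 at 0 h in wildtype. The log2 change was -0.56 ± 0.29 (SE) with an adjusted p of 0.240 (edgeR). In the same region, the nucleosome at -401 bp had 56 and 43 read centres in H3 shutoff at 3 h, against 88 and 52 at 0 h. Wildtype had 70 at 3 h and 46 at 0 h there. In culture 1 it fell about as much as the one at -230 bp, and in culture 2 by less. The first nucleosome of the ORF, at 63 bp, had 78 and 60 read centres at 3 h, against 50 and 82 at 0 h, in H3 shutoff, and 82 at 3 h and 87 at 0 h in wildtype. Its log2 change was 0.27, and -0.046 without replicate 1 at 0 h. The highest mean log2 ratio was at -598 bp, where H3 shutoff had 43 and 44 read centres at 3 h, against 33 and 24 at 0 h, and wildtype had 32 at 3 h and 21 at 0 h. Both pairs of H3 shutoff and the wildtype pair were higher at 3 h there, and the adjusted p was 0.254 (edgeR).

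At MLS1, as at ADH2 and ICL1, no nucleosome was called. Its ORF held 759 and 709 read centres in H3 shutoff at 3 h, against 708 and 846 at 0 h, and 866 at 3 h and 967 at 0 h in wildtype. The groups overlapped, and the log2 change was -0.08 ± 0.25 (SD, n = 2 pairs) in H3 shutoff and -0.16 in wildtype. Upstream, 500 bp held 221 and 175 read centres in H3 shutoff at 3 h, against 293 and 193 at 0 h, and 238 at 3 h and 216 at 0 h in wildtype. Both cultures were lower at 3 h and wildtype was higher, but the libraries of H3 shutoff overlapped between times. The log2 change was -0.27 ± 0.19 (SD, n = 2 pairs), and 18.0% of tiles of 500 bp had a lower one. With distinct intervals it was 0.077, which is -0.17 relative to tiles. MLS1 has a close relative in the genome, DAL7, and reads shared with it were not tested.

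The first nucleosome of the MLS1 ORF, at 35 bp, had 52 and 61 read centres in H3 shutoff at 3 h, against 93 and 82 at 0 h, and 88 at 3 h and 95 at 0 h in wildtype. It stood lower in both H3 shutoff libraries at 3 h than in any other, at a log2 change of -0.45 and an adjusted p of 0.384 (edgeR). The one upstream, at -137 bp, had 28 and 23 read centres at 3 h, against 38 and 29 at 0 h, in H3 shutoff, and 31 at 3 h and 48 at 0 h in wildtype. Among the named nucleosomes of MLS1, the lowest mean log2 ratio lay at 1982 bp, past the end of the gene, with 53 and 52 read centres at 3 h, against 90 and 91 at 0 h, in H3 shutoff, and 88 at 3 h and 107 at 0 h in wildtype. Replicates were close in both groups there, yet the adjusted p was 0.214 (edgeR).

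At 1812 bp, also past the end of MLS1, lay a nucleosome with a wide spread between libraries. It had 58 and 81 read centres in H3 shutoff at 3 h, against 106 and 20 at 0 h, and 52 at 3 h and 8 at 0 h in wildtype. As at -327 bp of ADH2, wildtype at 3 h and H3 shutoff replicate 1 at 0 h were high, and wildtype at 0 h and H3 shutoff replicate 2 at 0 h were low. The log2 change in H3 shutoff was 0.58 (edgeR adjusted p = 0.303) with all libraries. It was 1.99 without replicate 1 at 0 h, past the threshold, and -0.46 without replicate 2 at 0 h.

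These 2 sites belong to a wider difference between the 0 h libraries of H3 shutoff. Of the 65 nucleosomes, 6 were more than 2-fold higher in replicate 1 than in replicate 2 at 0 h and 0 were more than 2-fold lower. The 6 comprise 2 of ADH2, 2 of MLS1, 1 of ICL1 and 1 of SUC2, and 5 of the 6 were higher at 3 h than at 0 h in wildtype. Over the genome, 7.45% of nucleosomes were more than 2-fold apart between these 2 libraries, and the 2 differences had the same sign in 75.2% of those. Between the 2 libraries at 3 h, 2.55% were more than 2-fold apart in the genome, and 1 of the 65 at the 4 loci. Over the 65 nucleosomes, the log2 difference of replicate 1 and replicate 2 at 0 h correlated with the log2 change of wildtype at r = 0.592, beside r = 0.359 over the genome. The 4 libraries in that comparison are all different, and r is given as a description. The cause of the likeness was not tested.

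**Figure D4:**
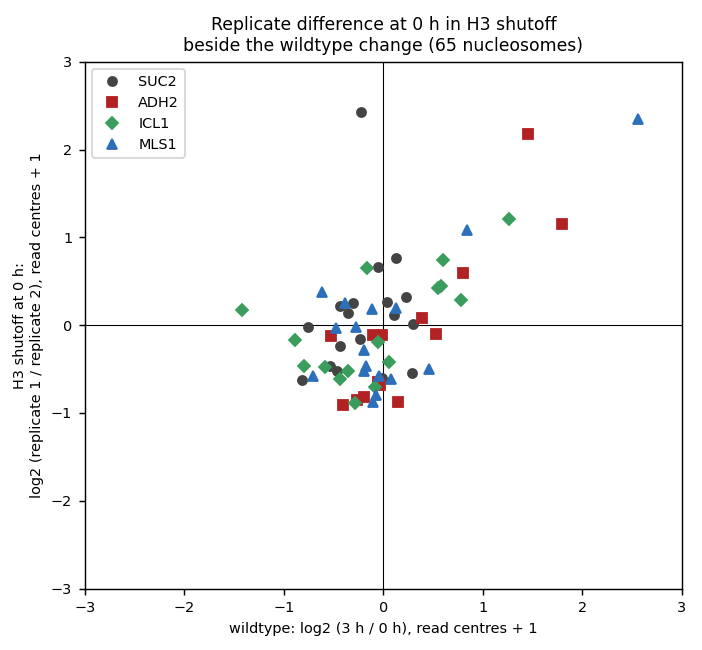
Log2 ratio of replicate 1 over replicate 2 of H3 shutoff at 0 h (y axis) against the log2 ratio of 3 h over 0 h in wildtype (x axis), 1 read added to each count, for the 65 nucleosomes. Each point is 1 nucleosome, with shape and colour for the gene. Of the 6 points above 1 on the y axis, 5 lie right of 0, and the exception is a SUC2 nucleosome with 26 and 4 read centres.

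Whether H3 shutoff and wildtype differed in their change was tested in the same fit. The strain by time term called 0 of 65 nucleosomes, beside 0.153% in the genome, with 9 of 65 at an unadjusted p under 0.05 where the genome had 12.7% (edgeR). DESeq2 also called 0 of 65, with 1 at an unadjusted p under 0.05. The lowest adjusted p of the 4 loci was 0.110, at 1706 bp of ADH2. Among the other 3 genes it was 0.152 at MLS1, 0.274 at ICL1 and 0.434 at SUC2. Leaving out replicate 2 of H3 shutoff at 0 h gave 6 calls, of which none was at SUC2, and leaving out any other H3 shutoff library gave 0. With 1 wildtype library a time, this test has little to rest on, and a p that misses the threshold does not show that the strains moved alike.

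Called nucleosomes of the authors' own lists were next matched within each pair of libraries, and a binomial test asked which held fewer (reduced) or more (retained) read centres at 3 h, with a Bonferroni-corrected p under 0.01. Such a test compares 2 libraries and not the conditions. In pair 1 of H3 shutoff, 4 of 62 matched nucleosomes were reduced and 0 retained, where 4.69% and 1.16% were in the genome. In pair 2, 2 of 59 were reduced and 1 was retained, where 3% and 0.697% were in the genome. In wildtype, 0 of 53 were reduced and 1 was retained, where 0.364% and 0.993% were in the genome.

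Counted once per pair, 5 of the 6 reduced nucleosomes were of SUC2, and these are 4 distinct ones. The nucleosome near -769 bp was the one reduced in both pairs, with 76 read centres at 3 h against 183 at 0 h in pair 1 and 82 at 3 h against 167 at 0 h in pair 2. In pair 1 the next one, near -596 bp, was reduced with 98 read centres at 3 h against 191 at 0 h, and so was the one in the ORF called at 327 bp at 3 h and at 268 bp at 0 h, with 61 against 146 read centres. In pair 2, the other one lay near 941 bp, with 64 read centres at 3 h against 143 at 0 h. It was not reduced when both times were counted at the 0 h centre, with 69 against 143, while one at 1559 bp of ICL1 then was, with 54 against 133, so that the count of 2 stands for different nucleosomes. In pair 1 that count added the SUC2 nucleosome at 86 bp, with 77 against 158. The remaining reduced nucleosome was at 1703 bp of ADH2 in pair 1, with 88 read centres at 3 h against 227 at 0 h. The same site was the retained one in wildtype, with 237 read centres at 3 h against 135 at 0 h. In pair 2 the retained nucleosome was called at 1814 bp of MLS1 at 3 h, with 81 read centres, and matched to a call at 1697 bp at 0 h, with 26. The 2 centres were over 100 bp apart, and it was not retained when both times were counted at the 0 h centre.

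How sharply nucleosomes were placed differed in the same way at all 4 genes. The contrast of an ORF, the SD over the mean of its smoothed density, was 0.509 and 0.462 at SUC2 in H3 shutoff at 3 h, against 0.779 and 0.660 at 0 h, and 0.852 at both times in wildtype. At ADH2 it was 0.527 and 0.418 at 3 h, against 0.773 and 0.759 at 0 h, in H3 shutoff, and 1.06 at 3 h and 1.03 at 0 h in wildtype. At ICL1 it was 0.488 and 0.408 at 3 h, against 0.701 and 0.627 at 0 h, in H3 shutoff, and 0.967 at 3 h and 0.689 at 0 h in wildtype. In each of these genes both 3 h libraries of H3 shutoff lay below every other library. The same held at MLS1, with 0.601 and 0.550 at 3 h, against 0.834 and 0.828 at 0 h, in H3 shutoff, and 1.00 at 3 h and 0.992 at 0 h in wildtype.

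The change of contrast in H3 shutoff was -0.23 ± 0.05 at SUC2, -0.29 ± 0.07 at ADH2, -0.22 ± 0.0047 at ICL1 and -0.26 ± 0.03 at MLS1 (SD, n = 2 pairs each). In the wildtype pair it was 0.00069, 0.03, 0.28 and 0.0080 in the same order of genes. These values are not particular to the 4 genes. Over tiles of 1500 bp the median contrast of the genome was 0.675 and 0.669 in H3 shutoff at 3 h, against 0.954 and 1.00 at 0 h, and 1.22 at 3 h and 1.16 at 0 h in wildtype. The 4 ORFs lay below that median in every library. The tiles cover the whole genome, with the regions between genes, and are not of the length of each ORF. The 4 ORFs were not compared with other ORFs in contrast. In contrast, as measured here, replicate 1 at 0 h lay above both 3 h libraries of H3 shutoff at each gene, as replicate 2 did. At ADH2 and MLS1 both replicates were close at 0 h. At SUC2, replicate 1 had 0.779, between replicate 2 with 0.660 and wildtype at 3 h with 0.852.

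**Figure D5:**
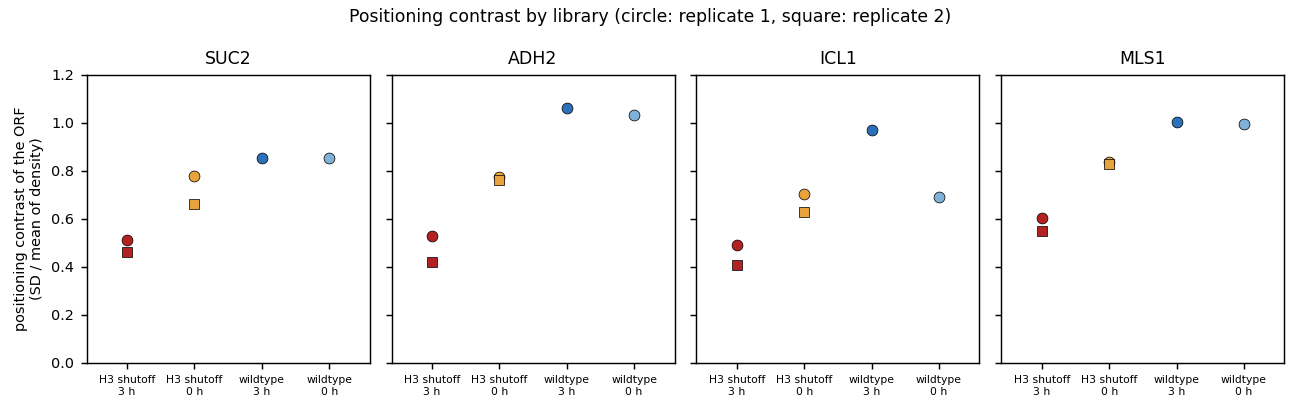
Positioning contrast (SD over mean of the smoothed read-centre density, no unit, y axis) of each ORF for H3 shutoff at 3 h and 0 h and wildtype at 3 h and 0 h. Circles are replicate 1 and squares replicate 2. At all 4 genes both H3 shutoff libraries at 3 h, between 0.408 and 0.601, lie below the other 4 libraries of that gene.

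Read centres also lay more often outside the consensus nucleosomes. These were called on the pool of all libraries, so reads at a nucleosome that had moved by 3 h also count as outside. In the SUC2 ORF, the H3 shutoff calls of 3 h at 635 and 637 bp held 54 and 48 read centres. They lay more than 50 bp from the consensus nucleosomes at 569 and 749 bp. The part of moved nucleosomes in these shares was not tested. At SUC2, 40.4% and 36.6% of the read centres of the locus were more than 50 bp from every consensus nucleosome in H3 shutoff at 3 h, against 25.5% and 24.4% at 0 h, and 19.9% at 3 h and 18.8% at 0 h in wildtype. At ADH2 the shares were 39.1% and 36.8% at 3 h, against 20.9% and 26.3% at 0 h, in H3 shutoff, and 14.1% at 3 h and 18.5% at 0 h in wildtype. At MLS1 they were 41.0% and 39.0% at 3 h, against 29.2% and 24.5% at 0 h, in H3 shutoff, and 22.4% at both times in wildtype. The groups of H3 shutoff did not overlap at any of these genes. ICL1 moved least, with 40.8% and 41.9% at 3 h, against 33.9% and 34.3% at 0 h, in H3 shutoff, and 28.3% at 3 h and 36.4% at 0 h in wildtype. The mean difference was 13.6 ± 1.96 percentage points at SUC2, 14.3 ± 5.47 at ADH2, 7.26 ± 0.498 at ICL1 and 13.2 ± 1.89 at MLS1 (SD, n = 2 pairs each), beside 10.6 ± 0.270 over the genome.

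The number of called nucleosomes was the same in both H3 shutoff pairs at SUC2 and ADH2, 1 lower at 3 h at ICL1, and 3 and 2 higher at MLS1. SUC2 had 17 and 16 calls with more than 5 read centres in H3 shutoff at 3 h, against 17 and 16 at 0 h, and 16 at 3 h and 17 at 0 h in wildtype. At MLS1 there were 19 and 16 at 3 h, against 16 and 14 at 0 h, and 14 at each time in wildtype. More calls at 3 h were not particular to MLS1. Over the genome, H3 shutoff had 57493 and 55487 such calls at 3 h, against 54276 and 52459 at 0 h. Wildtype had 51281 at 3 h and 51419 at 0 h. The caller closes the protected length of each library around a call. This length was 158 bp and 165 bp in the H3 shutoff libraries of 3 h, against 170 bp and 172 bp in those of 0 h, and 174 bp in wildtype, and the part of this in the counts of calls was not tested. In the SUC2 ORF the median call held 72.0 and 64.0 read centres in H3 shutoff at 3 h, against 107 and 126 at 0 h, and 110 at 3 h and 148.5 at 0 h in wildtype. At ADH2, ICL1 and MLS1 that median was higher at 3 h in pair 1 and lower in pair 2. The median spacing of calls in that ORF was 230 and 242 bp in the H3 shutoff libraries of 3 h, against 184.5 and 179 bp in those of 0 h. Each of these libraries had 7 calls in the ORF, over nearly the same span. The first and last lay at 91 and 1509 bp and at 84 and 1504 bp at 3 h. At 0 h they lay at 86 and 1452 bp and at 67 and 1451 bp. The larger median thus does not stand for fewer calls along the ORF. Wildtype had 182 bp at 3 h and 175 bp at 0 h. In the ORF of ICL1 the H3 shutoff cells had a spacing of 199 and 218 bp at 3 h, against 178 and 198 bp at 0 h, and wildtype had 175 bp at 3 h and 202 bp at 0 h, the last within the range of H3 shutoff at 3 h. In the ORFs of ADH2 and MLS1 the H3 shutoff groups overlapped.

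Matched calls at the 4 loci lay a median of 15 bp apart between 3 h and 0 h in H3 shutoff pair 1 and 17 bp apart in pair 2, against 6 bp apart in the wildtype pair. By gene, the median distance in the H3 shutoff pairs was 25 and 15.5 bp at SUC2, 7 and 12 bp at ADH2, 10.5 and 25 bp at ICL1 and 27.5 and 31.0 bp at MLS1. In wildtype it was 6, 6, 10 and 3 bp in the same order. The spread of read centres around a call (fuzziness, an SD in bp) differed less. At MLS1 its median reached 36.0 bp and 38.7 bp in H3 shutoff at 3 h, against 32.1 bp and 29.1 bp at 0 h, and was 22.6 bp at 3 h and 20.9 bp at 0 h in wildtype. At SUC2 it was 37.1 and 38.9 bp at 3 h, against 37.6 and 33.4 bp at 0 h, and the groups overlapped.

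The widest gap between neighbouring calls whose midpoint lay in the 1 kb upstream was also measured. At SUC2 it was 317 bp in both H3 shutoff libraries at 3 h, against 292 and 283 bp at 0 h, while wildtype had 292 bp at 3 h and 258 bp at 0 h. The gap was not the same one at both times. At 0 h, and in wildtype, it ran from a call near -596 bp to one near -304 or -334 bp. In H3 shutoff at 3 h the widest gap lay between calls near -1086 and -769 bp, where the other libraries had a shallow call near -944 bp with 34 to 42 read centres. In spite of the missing call, the consensus nucleosome at -939 bp held 35 and 46 in H3 shutoff at 3 h, against 48 and 40 at 0 h, and 33 at 3 h and 41 at 0 h in wildtype. These counts overlapped between the groups, so the wider gap at 3 h was one of calls and not of read centres. Wildtype and H3 shutoff were both wider at 3 h, by 34 bp in the wildtype pair and by 29.5 ± 6.36 bp in H3 shutoff (SD, n = 2 pairs).

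The SUC2 gap of wildtype at 0 h stayed below the level of the locus in 5 of the 6 libraries. In the 100 bp at its middle, around -463 bp, there were 45 and 23 read centres in H3 shutoff at 3 h, against 30 and 19 at 0 h, and 15 at 3 h and 10 at 0 h in wildtype. The median of 100 bp windows over the locus was 45.0 and 42.0 at 3 h, against 46.0 and 50.0 at 0 h, in H3 shutoff, and 58.0 at 3 h and 57.0 at 0 h in wildtype. Replicate 1 of H3 shutoff at 3 h reached that median, with a call of 52 read centres at -424 bp. The H3 shutoff groups overlapped.

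At the other 3 genes the widest gap moved from place to place. ADH2 had 281 and 290 bp in H3 shutoff at 3 h, against 308 and 317 bp at 0 h, while wildtype had 319 bp at 3 h and 333 bp at 0 h. The difference was -27.0 bp in both H3 shutoff pairs and -14.0 bp in wildtype. However, the gap lay next to the ORF in wildtype at 0 h and in H3 shutoff replicate 1 at 0 h, and upstream of -500 bp in the other libraries. The gap of wildtype at 0 h was not empty. In that library the 100 bp at its middle, around -13 bp, held 61 read centres, where the median over the locus was 32. At ICL1 the gap over the ORF start, from about -230 bp to about 63 bp, was 291 and 270 bp wide in H3 shutoff at 3 h, 297 bp in H3 shutoff replicate 2 at 0 h, while wildtype had 294 bp at 3 h and 306 bp at 0 h. H3 shutoff replicate 1 at 0 h had a call of 27 read centres at -53 bp in it, and so its widest gap was another one, of 234 bp. The other libraries had no call there but were not empty. The 100 bp around -83 bp held 21 and 18 read centres in H3 shutoff at 3 h, against 27 and 35 at 0 h. Wildtype had 35 at 3 h and 59 at 0 h there, where its median of 100 bp windows over the locus was 35 and 48. At MLS1 the H3 shutoff libraries had gaps of 190 and 309 bp at 3 h, against 277 and 342 bp at 0 h, while wildtype had 346 bp at 3 h and 347 bp at 0 h. The mean difference of -60.0 ± 38.2 bp (SD, n = 2 pairs) was 16.0 bp with 1 protected length for all libraries.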

How the data were processed

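The authors mapped reads to sacCer1 with Bowtie 0.12.6 (per the labels), extended them to each library's mean fragment size, left out ribosomal DNA and drew equal numbers per library. They deposited these as intervals, with lists of called nucleosomes whose counts of read centres are whole numbers and not normalized. All values were computed here from the deposited intervals and counts. Read centres were taken as interval midpoints, and those within 50 bp of a deposited centre gave the deposited count in 100% of calls. The authors' procedure was rewritten and run on all 6 libraries together to call consensus nucleosomes (Gaussian s.d. 10 bp, limit 3 s.d.), with a protected length of 169 bp. Those with a mean of at least 10 (53684) were tested with edgeR 4.0.16 in R 4.3.3 (glmQLFit, glmQLFTest, TMM, Benjamini-Hochberg over the whole genome), with culture, time, and strain by time as terms. This left 1 residual degree of freedom. The culture is a block since each replicate was sampled at both times, although deviations of libraries of 1 culture correlated at r = -0.116 over 53684 nucleosomes. The fit was tested on simulated data. Deposited calls were matched by an overlap of at least 30 bp. Log2 ratios used a pseudocount of 1 read. Tiles of the genome have the length of the region they stand beside, save those for contrast, which have 1500 bp. Alternatives were DESeq2 1.42.0, scaling by library totals, no block, no minimum, other windows, distinct intervals and leaving out each library. Nucleosomes were named if called, first on either side of the ORF start, or of the lowest or highest mean log2 ratio in a locus; others that are named were chosen after their values were seen. The members, lists and tests were chosen with earlier results of these data known. Reads carry no molecular identifiers. The edgeR p-values rest on 2 H3 shutoff cultures and on a spread estimated with help from all nucleosomes. They follow the spread between the cultures at a single nucleosome only in part. The binomial p-values compare 2 libraries and hold no spread between cultures. RefSeq (R64) gave names and neighbours only, and matched all 4 genes. The deposited conditional position fraction of the lists was not used.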

Additional observations from a re-analysis of the deposited data

Results flagged for a closer look

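The upstream, ORF and downstream regions of all 4 genes were looked at. In 4 of these regions both H3 shutoff cultures moved one way and the wildtype pair the other. The difference was not tested in any of them, since wildtype has 1 pair. Over the 500 bp upstream of ICL1 the mean log2 change was -0.44 in H3 shutoff and 0.0060 in wildtype, a value close to 0. Upstream of ADH2 it was -0.34 ± 0.33 (SD, n = 2 pairs) in H3 shutoff and 0.20 in wildtype. The H3 shutoff counts there overlapped, with 181 and 134 at 3 h against 270 and 144 at 0 h. Culture 2 changed by -0.10, against -0.57 in culture 1, whose 0 h library stood apart. Upstream of MLS1, where the H3 shutoff groups also overlapped, the mean log2 change was -0.27 in H3 shutoff and 0.14 in wildtype. Over the 500 bp downstream of SUC2 it was -0.24 in H3 shutoff and 0.15 in wildtype. The H3 shutoff groups overlapped there too, with 112 and 94 read centres at 3 h against 142 and 103 at 0 h. Among all tiles of 500 bp, 16.2% were lower in both H3 shutoff cultures and higher in wildtype.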

How the results depend on the processing

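The count of 2 called nucleosomes was 0 with no replicate block, 5 with library totals, 0 with DESeq2 and 0 to 9 with 1 H3 shutoff library left out (0 without either 3 h library, 7 without replicate 1 and 9 without replicate 2 at 0 h). Crossing the pairing of replicate numbers between times, an alternative chosen after seeing the data, gave 3 calls for time and 0 for the strain difference. In the genome it called 2319 of 53684 nucleosomes lower and 1852 higher for time. The strain difference was called at 0 to 6 nucleosomes with 1 library left out. Fits without a library have no block and assume that a lone library varies like the others. The replicate block changed no other call at the 4 loci. With library totals the median log2 change over the genome was -0.17 and over the 65 nucleosomes -0.39. TMM and distinct intervals, chosen as alternatives to the equal totals, moved the median tile of 500 bp to 0.22 and 0.24, so values are also given relative to it. The ORF change of SUC2 was -0.33 with TMM and -0.093 with distinct intervals, which is -0.53 and -0.34 relative to tiles of its length. With distinct intervals the promoter change was 0.24 at ADH2, 0.097 at ICL1 and 0.077 at MLS1, which is -0.0039, -0.15 and -0.17 relative to tiles, and with TMM it was -0.26 at ICL1. A window of 250 bp gave 0.47 at ADH2, -0.58 at ICL1 and 0.035 at MLS1, and one of 1000 bp gave -0.16 at ICL1. The widest gap of SUC2 differed by 37.0 bp with more than 10 read centres per call and with 1 protected length, which gave -27.5 bp at ADH2 and 16.0 bp at MLS1. Counted at the 0 h centre, 0 nucleosomes were retained in H3 shutoff pair 2 and 1 was reduced in wildtype. Single nucleosomes turned round when a library was left out, over a range of log2 changes of -2.26 to 0.64 for SUC2 at -160 bp, -0.58 to 0.39 for ADH2 at 156 bp, -0.046 to 0.61 for ICL1 at 63 bp, -0.43 to 0.017 for MLS1 at -137 bp and -0.46 to 1.99 for MLS1 at 1812 bp. The causes were not tested. Most nucleosomes here held under 100 read centres per library, which limits what a test can show.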
